A study of Homo sapiens with 2 samples.

Results

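Matrix glycoproteins, laminins and the enzymes that modify and crosslink collagen and elastin were examined as a set of 47 genes, chosen by name out of 60880 gene rows. They fall into 15 genes of microfibrils and elastic fibres, 8 genes of fibronectin and matricellular proteins, 11 laminin and nidogen genes and 13 genes of crosslinking and collagen modification. All 47 matched a row by Ensembl identifier. The values are reads per kilobase of exon per 1000000 reads on genes (RPKM). The length used is that of all listed exons of a gene, so levels compare only roughly between genes where the cells use shorter transcripts. A floor of a mean of at least 1 RPKM over both libraries left 30 of the 47 members, and each of these 30 was at 1 RPKM or more in each library.

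RNA was sequenced from SUM-159 cells, a human breast cancer line of the triple-negative class, a class defined by the lack of hormone receptors and of HER2 amplification. The study set cells deficient for PD-L1L2-SE, a super-enhancer named for the PD-1 ligand genes CD274 and PDCD1LG2, against cells that received the sgVector control, with 1 library of each. The sources used here do not say whether the deficient cells were 1 clone or a pool. With 1 library per group no difference has a replicate check and no test of the conditions was made. In bulk RNA, fewer cells that express a gene and less of its RNA per cell cannot be told apart. The 95% intervals given with each ratio of read shares are exact Clopper-Pearson intervals of the reads. They cover counting error only, since there are no replicates. Amplified reads carry no molecular identifier and several may stem from 1 molecule, so the intervals may be too narrow even for counting error.

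The libraries held 16381546 reads on genes (deficient) and 16206675 (sgVector). CD274 stood at 0.698 RPKM in the deficient library and 7.16 RPKM in the control, and PDCD1LG2 at 1.19 and 5.32 RPKM. Of the markers of the line, the mesenchymal filament gene VIM was abundant, at 389.7 RPKM (deficient) and 746 RPKM (sgVector), 1.91-fold lower in the deficient library (1.89 to 1.94). The other 4 mesenchymal markers were also present and nearer to no difference, with log2 ratios of 0.03 for ZEB1, -0.01 for AXL, -0.05 for CDH2 and -0.27 for CD44. EPCAM and CDH1 had at most 1 read in either library, KRT19 had 1 and 0 reads, PGR had 0 reads and ESR1 had 6 and 2. The keratin genes KRT8 and KRT18 of the same epithelial list were expressed, at 15.5 and 18.5 RPKM and at 21.1 and 28.9 RPKM, deficient and sgVector. ERBB2, which encodes HER2, stood at 9.996 and 7.02 RPKM. Of the fibroblast markers, 3 of 4 passed the floor, with a summed level of 29.4 RPKM (deficient) and 16.8 RPKM (sgVector). PDGFRA was 2.10-fold higher (1.98 to 2.23), and LUM had 1 and 4 reads. The leukocyte list had 476 and 342 reads, of which CD14 held 476 and 337, with CD3E at 0. The 3 endothelial markers that matched a row had 17 and 9 reads, and the fourth, PECAM1, matched none. The part of the VIM and fibroblast marker differences in the matrix results was not tested.

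The extracellular matrix is assembled outside the cell from secreted proteins. Fibrillins polymerise into microfibrils, which carry latent TGF-beta through LTBP proteins and, with fibulins, guide elastin into elastic fibres. Laminins are trimers of an alpha, a beta and a gamma chain that polymerise into the sheet of a basement membrane, to which nidogens bind. Collagen chains are hydroxylated on proline and lysine in the endoplasmic reticulum, folded with the help of the chaperone encoded by SERPINH1, and crosslinked outside the cell by lysyl oxidases. Carcinoma cells with mesenchymal traits are known to make many of these proteins themselves.

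Among the 30 members past the floor, 4 were at least 2-fold lower in the deficient library (FBN1, LOXL2, FBLN1 and THBS3) and 1 was at least 2-fold higher (FBLN5). That is 13.3% lower and 3.33% higher, where among 10576 protein-coding genes past the same floor 2.07% were at least 2-fold lower and 2.10% at least 2-fold higher. Members were chosen with earlier results of these data known, so this contrast is not free of that choice. The 2-fold rule used log2 of (RPKM + 0.1), deficient minus sgVector, past 1 or -1, a scale that understates the change of low genes. The interval of the ratio lay wholly below 1 for 16 of the 30 members and wholly above 1 for 10, and spanned 1 for 4. Among all protein-coding genes past the floor 35.4% lay wholly below and 30.0% wholly above. The median log2 ratio of the 30 was -0.18, beside a median of -0.03 over all those protein-coding genes. Summed over the 47 members, the level was nearly the same, at 1193 RPKM (deficient) and 1204 RPKM (sgVector). Within that sum FN1 made up 24.9% in the deficient library and 19.1% in the control, and LAMB3 made up 21.7% and 13.0%.

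**Figure D1:**
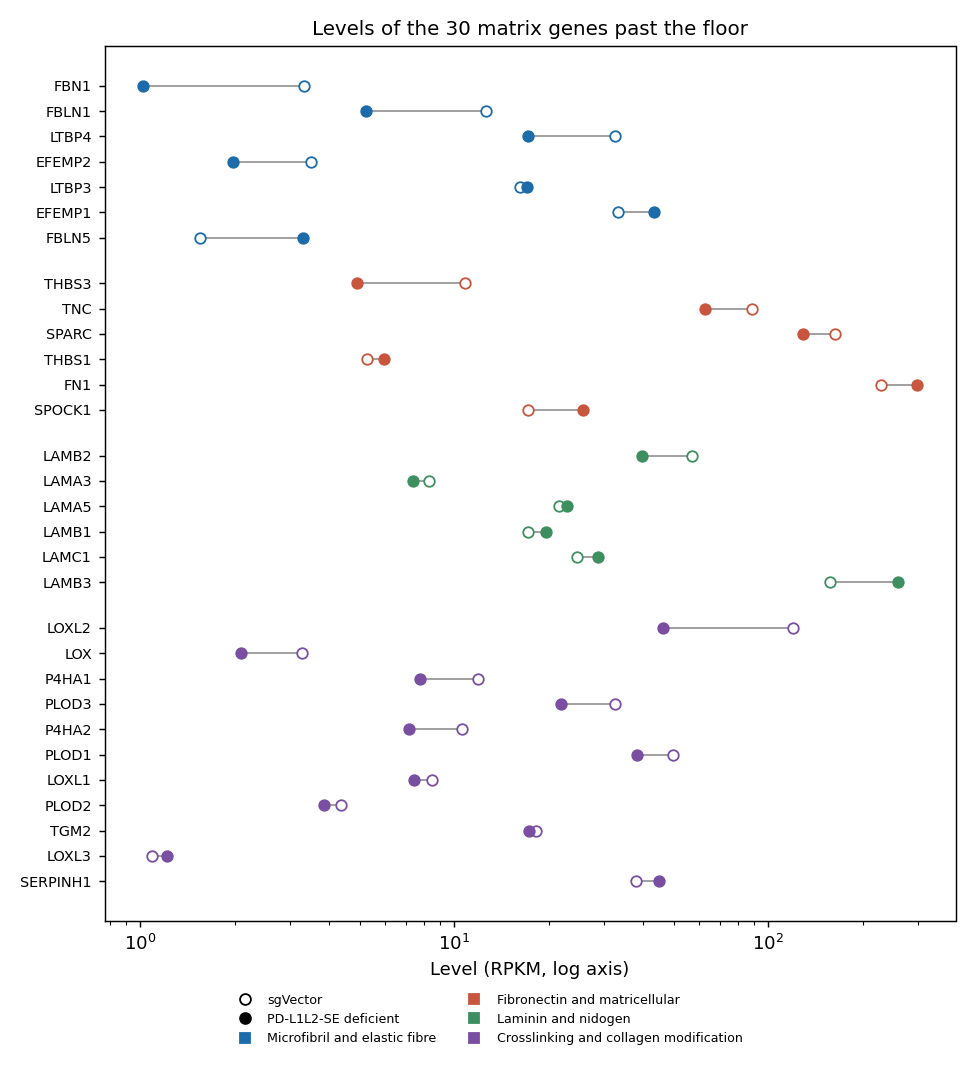
Level of each of the 30 matrix genes past the floor, in RPKM on a log axis, with open circles for the sgVector library and filled circles for the PD-L1L2-SE deficient library, ordered by ratio within each group. FN1 is the highest in both libraries (297 and 229 RPKM), and LOXL2 has the widest gap among the genes above 20 RPKM, from 119.8 down to 46.3 RPKM.

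The order of levels changed at the top of the list. FN1 was the most abundant member in both libraries. In the control it was followed by SPARC, LAMB3, LOXL2 and TNC, and in the deficient library by LAMB3, SPARC, TNC and LOXL2. In all, 12 members stood at 20 RPKM or more in both libraries.

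Microfibril and elastic fibre genes held the largest ratios among the 30 members past the floor, in both directions. Of 15 members 7 passed the floor, with a median log2 ratio of -0.80 and a range from -1.61 to 1.04. The median was -0.43 with a floor of 5 RPKM and -0.20 with no floor. FBN1 and FBLN1 were at least 2-fold lower and FBLN5 was at least 2-fold higher. The intervals of 4 members lay wholly below 1 and those of 2 wholly above, beside 35.4% and 30.0% of all protein-coding genes.

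FBN1 encodes fibrillin, the backbone of the microfibril. It had 269 reads in the deficient library against 863 in the control, at 1.02 and 3.32 RPKM, and was 3.24-fold lower (2.82 to 3.73). FBLN1, a fibulin gene of elastic fibres and basement membranes, had 623 and 1491 reads, at 5.22 and 12.6 RPKM, and was 2.42-fold lower (2.20 to 2.66). FBLN5, whose protein binds elastin and lysyl oxidases, went the other way. It had 269 and 125 reads, at 3.30 and 1.55 RPKM, and was 2.13-fold higher (1.72 to 2.65). With a pseudocount of 1 RPKM the FBLN5 log2 ratio was 0.75, short of 2-fold. EFEMP1, the most abundant gene of the group and also a fibulin, had 2807 and 2126 reads, at 43.2 and 33.1 RPKM, and was 1.31-fold higher (1.23 to 1.38). The fibulin family thus held members on both sides of no difference. EFEMP2, which like FBLN5 encodes a fibulin of elastic fibre assembly, was lower, at 1.97 RPKM against 3.51 RPKM (log2 ratio -0.80). FBLN2 had only 13 and 11 reads.

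The LTBP genes, some of whose proteins hold latent TGF-beta in the matrix, also differed among themselves. LTBP4 stood at 17.1 RPKM in the deficient library and 32.6 RPKM in the control, 1.90-fold lower (1.80 to 1.999). LTBP3 stood at 17.0 and 16.2 RPKM, with a ratio of 1.05 (0.996 to 1.11) that spans no difference. LTBP4 was therefore 2.01 times the level of LTBP3 in the control and 1.01 times its level in the deficient library. LTBP1 lay under the floor, with 11 reads in the deficient library against 35 in the control, a ratio of 0.311 (0.142 to 0.626). LTBP2 had 34 and 49 reads.

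The other 6 microfibril and elastic fibre members under the floor were scarce in both libraries. FBN2 had 1 read in each, ELN, the elastin gene itself, 2 and 1 reads, and EMILIN1 8 and 10. MFAP2 and MFAP5, which encode microfibril-associated glycoproteins, had 0 reads in both, where a count of 0 allows up to 3 reads, or 0.183 per 1000000 reads (deficient) and 0.185 (sgVector).

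In the hg19 coordinates of the deposited table, FBN1 (ENSG00000166147) lies on chromosome 15 from 48700503 to 48938046, FBLN1 (ENSG00000077942) on chromosome 22 from 45898118 to 45997015 and FBLN5 (ENSG00000140092) on chromosome 14 from 92335756 to 92414331. None of the 3 shares exon bases with another gene of the table. The median log2 ratio of the 20 nearest protein-coding genes past the floor, 10 on each side, was 0.25 around FBN1, -0.29 around FBLN1 and -0.14 around FBLN5.

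The promoters of these 3 genes are shown because they are the microfibril and elastic fibre genes past 2-fold. Each window is the 250 bases before the listed RefSeq gene start in GRCh38.p14, 5′ to 3′ on the gene's strand, in lower case. The FBN1 window is chr15:48644971-48645220 on the minus strand, the FBLN1 window chr22:45502633-45502882 on the plus strand and the FBLN5 window chr14:91947695-91947944 on the minus strand. Capitals mark matches, on either strand, to 5 motifs whose letters are spelled out in the next paragraph.
FBN1: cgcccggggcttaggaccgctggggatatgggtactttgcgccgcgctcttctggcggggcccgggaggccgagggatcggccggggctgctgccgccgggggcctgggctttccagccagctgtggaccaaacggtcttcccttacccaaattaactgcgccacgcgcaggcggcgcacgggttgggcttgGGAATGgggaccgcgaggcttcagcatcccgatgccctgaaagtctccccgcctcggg
FBLN1: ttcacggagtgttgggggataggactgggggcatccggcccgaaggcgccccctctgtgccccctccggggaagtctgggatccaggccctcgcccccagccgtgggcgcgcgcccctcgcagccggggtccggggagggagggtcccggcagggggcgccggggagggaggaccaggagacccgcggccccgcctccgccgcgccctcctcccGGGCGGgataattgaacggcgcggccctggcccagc
FBLN5: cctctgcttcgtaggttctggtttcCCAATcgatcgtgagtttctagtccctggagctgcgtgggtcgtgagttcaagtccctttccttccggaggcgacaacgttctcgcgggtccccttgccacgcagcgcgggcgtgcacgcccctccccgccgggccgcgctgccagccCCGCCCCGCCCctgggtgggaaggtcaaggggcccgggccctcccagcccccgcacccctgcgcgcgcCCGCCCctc
The FBN1 window held a TEAD motif that begins 58 bases before the start, and no match to the other motifs. The FBLN1 window held 1 GC box, 36 bases before the start. The FBLN5 window, the more upstream of 2 listed starts, held 3 GC boxes, of which 2 overlap by 1 base, and a CCAAT box. The bases after the listed start were found in a GENCODE transcript of FBLN1 and of FBLN5 and not in one of FBN1. Which start is in use in these cells was not tested.

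Windows of this kind were at hand for 38 of the 47 members, 52 windows in all, and some of them overlap. The GC box, with the letters GGGCGG, was in 65.4% of these 52 windows and in 42.6% of all 35114 windows of the table. The CCAAT box, named by its letters, was in 26.9% of members' windows against 32.0% of all. The AP-1 motif, searched as TGANTCA, was in 7.7% against 6.6%. The TATA box, searched with the letters TATAAA, was in 7.7% against 10.7%. The TEAD motif, searched as GGAATG, was in 13.5% against 11.9%. These matches describe the letters of the windows and no binding was measured.

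**Figure D2:**
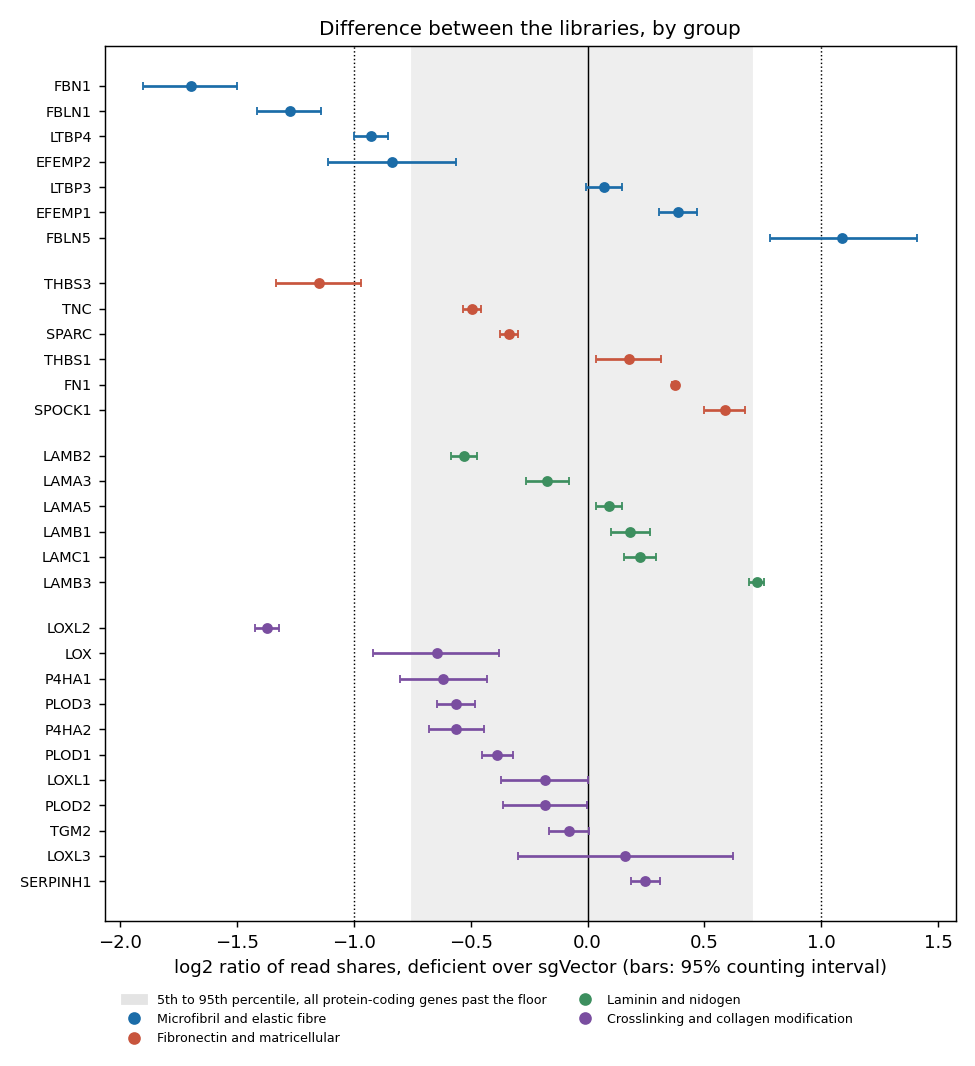
Log2 ratio of read shares, deficient over sgVector, for the 30 matrix genes past the floor, with bars for the 95% counting interval, dotted lines at 2-fold and a grey band from the 5th to the 95th percentile of all protein-coding genes past the floor. FBN1, FBLN1, THBS3 and LOXL2 lie beyond -1 and FBLN5 beyond 1, and 9 of the 11 crosslinking and collagen modification genes lie left of 0.

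Fibronectin and matricellular genes were divided. Of 8 members 6 passed the floor, 3 with intervals wholly above 1 and 3 wholly below, beside 30.0% and 35.4% of all protein-coding genes. The median log2 ratio of the 6 was -0.08, and that of the group with no floor was 0.23. FN1, which encodes fibronectin, the main adhesive glycoprotein of the provisional matrix, had 84321 reads in the deficient library against 64373 in the control, at 297 and 229 RPKM, and was 1.30-fold higher (1.28 to 1.31). SPOCK1, a proteoglycan gene of the SPARC family, stood at 25.8 and 17.1 RPKM from 2625 and 1729 reads and was 1.502-fold higher (1.41 to 1.597). THBS1, a thrombospondin gene, stood at 5.97 and 5.29 RPKM, with a log2 ratio of 0.17.

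THBS3, another thrombospondin gene, was the member of this group past 2-fold. It had 370 reads in the deficient library against 812 in the control, at 4.89 and 10.8 RPKM, and was 2.22-fold lower (1.96 to 2.52). After a correction for GC content and transcript length its log2 ratio was -0.98 in place of -1.13, just short of 2-fold. THBS3 (ENSG00000169231, chromosome 1 from 155165379 to 155178842, hg19) shares 22.2% of its exon length with the antisense gene THBS3-AS1, which had 45 and 75 reads, and 3.16% with MTX1 on the opposite strand. The sources used here do not say whether counting used strand, which leaves its value uncertain. TNC, which encodes the matricellular glycoprotein tenascin, had 9956 and 13869 reads, at 63.1 and 88.8 RPKM, and was 1.41-fold lower (1.37 to 1.45). SPARC, a collagen-binding matricellular gene, stood at 129 and 163 RPKM (log2 ratio -0.34).

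The thrombospondin genes thus lay on both sides of no difference. THBS2, under the floor, had 41 reads in the deficient library against 18 in the control, a ratio of 2.25 (1.27 to 4.17). POSTN, which encodes the matricellular protein periostin, had 2 and 0 reads.

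Laminin genes differed by chain, and none was 2-fold apart. Of 11 laminin and nidogen members 6 passed the floor, all of them laminin chains. The intervals of 4 lay wholly above 1 and those of 2 wholly below, beside 30.0% and 35.4% of all protein-coding genes. The median log2 ratio of the 6 chains was 0.14, and with no floor that of the group was -0.11. The beta chain gene LAMB3 was the most abundant of these chains in both libraries, and with 19912 reads in the deficient library against 11929 in the control it also had the largest ratio. It stood at 259 and 157 RPKM, 1.65-fold higher (1.61 to 1.69), above the 95th percentile (0.68) of the log2 ratios of all protein-coding genes past the floor, at 0.72.

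LAMB3 (ENSG00000196878) lies on chromosome 1 from 209788215 to 209825811 in hg19, and the 20 nearest genes had a median log2 ratio of 0.11. Its promoter is shown as that of the chain with the largest ratio, with capitals as above, for the most upstream of 3 listed starts in GRCh38.p14, chr1:209652426-209652675 on the minus strand.
LAMB3: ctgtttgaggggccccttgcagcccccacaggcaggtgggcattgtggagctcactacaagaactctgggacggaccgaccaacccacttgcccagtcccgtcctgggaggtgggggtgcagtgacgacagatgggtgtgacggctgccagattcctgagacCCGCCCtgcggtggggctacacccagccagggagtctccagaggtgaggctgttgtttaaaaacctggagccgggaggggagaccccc
This window held 1 GC box, 88 bases before the start. Of the windows at the other 2 listed starts, the most downstream held an AP-1 motif, a CCAAT box and a GC box.

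The alpha chain gene LAMA3, whose product joins with that of LAMB3 in the laminin that anchors epithelial cells through hemidesmosomes, did not share its ratio. LAMA3 had 1774 and 1977 reads, at 7.38 and 8.31 RPKM, and was 1.13-fold lower (1.06 to 1.202). The level of LAMB3 was 18.9 times that of LAMA3 in the control and 35.1 times in the deficient library. These multiples rest on listed exon lengths of 4688 bases for LAMB3 and 14678 for LAMA3. Which transcripts are in use was not tested, and a shorter LAMA3 transcript would make both multiples smaller.

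The chains of the other common laminins were nearer to each other in level. LAMC1, the gamma chain gene shared by most laminins, stood at 28.8 and 24.6 RPKM from 3959 and 3354 reads and was 1.17-fold higher (1.12 to 1.22). LAMA5 and LAMB1 had log2 ratios of 0.09 and 0.18. LAMB2 went the other way. It had 4469 reads in the deficient library against 6377 in the control, at 39.7 and 57.3 RPKM, and was 1.44-fold lower (1.39 to 1.499). The level of LAMB2, an alternative to LAMB1 in the same trimers, was thus 3.33 times that of LAMB1 in the control and 2.03 times in the deficient library.

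The 5 other laminin and nidogen members were under the floor, with intervals that span no difference. LAMA1 had 26 and 30 reads, LAMA2 27 and 30, LAMA4 5 and 2, NID1 0 and 2, and NID2 30 and 45. NID2 shares 30.0% of its exon length with RTRAF on the opposite strand, so its few reads are uncertain.

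**Figure D3:**
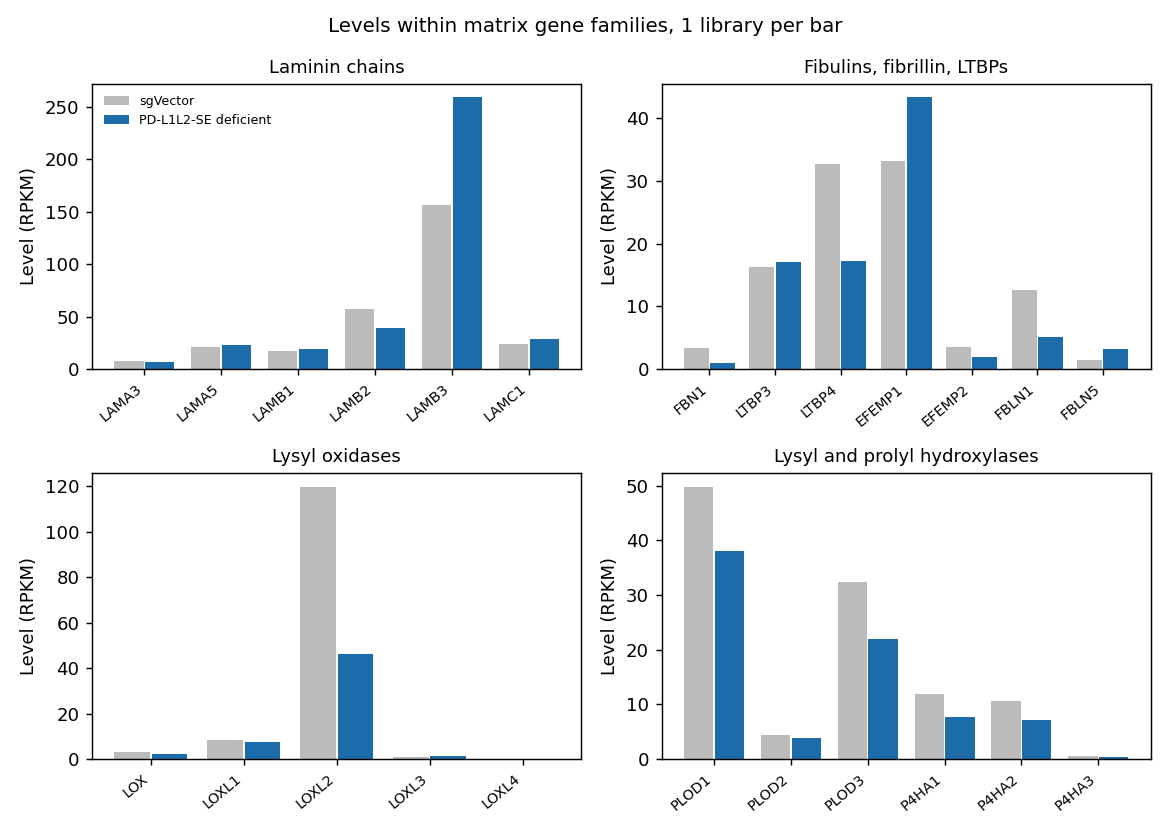
Levels in RPKM, on axes that start at 0, for 4 families, with grey bars for the sgVector and blue bars for the PD-L1L2-SE deficient library, 1 library per bar and no replicate error. LAMB3 stands above the other laminin chains plotted in both libraries, LOXL2 is the tallest lysyl oxidase in both, and PLOD1, PLOD3, P4HA1 and P4HA2 are lower in the deficient library.

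Genes of crosslinking and collagen modification stood mostly lower in the deficient library. Of 13 members 11 passed the floor, with a median log2 ratio of -0.39, and 9 of the 11 had a log2 ratio below 0. The median of all protein-coding genes past the floor was itself below 0, at -0.03. In the 2 classes of GC content nearest this group's median of 56.4% it was -0.13 and -0.14. LOXL1 and TGM2 are among the 9, and both turned to the other side of 0 after the GC and length correction, at 0.12 and 0.01. Intervals lay wholly below 1 for 7 of the 11 (63.6%), wholly above 1 for SERPINH1 alone, and spanned 1 for 3, where 35.4% of all protein-coding genes lay wholly below and 30.0% wholly above. Only LOXL2 was 2-fold apart. The summed level of the 13 was 199 RPKM in deficient cells and 298 RPKM in control cells, and without LOXL2 the other 12 summed to 152 and 178 RPKM. With no floor the median was -0.20.

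Lysyl oxidases oxidise lysine in collagen and elastin so that the fibres crosslink. LOXL2 was the most abundant of the 5 genes. It had 4326 reads in the deficient library against 11077 in the control, at 46.3 and 119.8 RPKM, and was 2.59-fold lower (2.499 to 2.68). It made up 90.3% of the summed level of the 5 genes in the control and 81.1% in the deficient library. LOXL2 (ENSG00000134013) lies at 8p21, from 23154702 to 23282841 in hg19, and the 20 nearest genes had a median log2 ratio of -0.31. It shares 3.12% of its exon length with LOXL2-AS1 on the opposite strand. A further 2.10% is shared with ENTPD4 on the same strand, which had 1595 reads (deficient) and 2209 (sgVector).

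LOX, the founding member of the family, had 190 and 294 reads, at 2.09 and 3.27 RPKM, and was 1.56-fold lower (1.30 to 1.89). LOXL1, which acts on elastic fibres, stood at 7.47 and 8.48 RPKM, and LOXL3 at 1.22 and 1.09 RPKM from 87 and 77 reads, with a ratio of 1.12 (0.813 to 1.54), so that both intervals span no difference. LOXL3 shares 14.3% of its exon length with HTRA2. LOXL4 had 1 and 2 reads.

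The hydroxylase genes past the floor were all lower in the deficient library, each by less than 2-fold. The lysyl hydroxylase genes PLOD1, PLOD2 and PLOD3 had log2 ratios of -0.39, -0.18 and -0.56. PLOD1, the most abundant of the 3, stood at 38.1 RPKM against 49.8 RPKM and PLOD3 at 21.9 RPKM against 32.4 RPKM. The interval of PLOD2 reached to a ratio of 0.998. P4HA1 and P4HA2, which encode the catalytic subunits of collagen prolyl 4-hydroxylase, had nearly equal log2 ratios, -0.61 and -0.56. P4HA1 stood at 7.76 RPKM against 11.9 RPKM, and P4HA2 at 7.19 RPKM against 10.6 RPKM. P4HA3 was under the floor with 28 and 30 reads. P4HB, the common beta subunit, which is not a member, stood at 145 RPKM against 138 RPKM, so that the summed level of the 3 P4HA genes was 10.6% of that of P4HB in the deficient library and 16.7% in the control.

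SERPINH1, the gene of the collagen chaperone, was the exception among the abundant genes of this group. It had 4625 reads in the deficient library against 3854 in the control, at 44.95 and 37.9 RPKM, and was 1.19-fold higher (1.14 to 1.24). TGM2, a transglutaminase gene that crosslinks matrix proteins by another chemistry, stood at 17.2 and 18.2 RPKM, with a ratio of 0.946 (0.893 to 1.003).

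The median ratio of genes shifted with the base composition of their transcripts in these libraries, with a wide spread at any GC content. Protein-coding genes in the fifth of lowest GC content had a median log2 ratio of 0.14 and those in the fifth of highest GC content -0.20. The 30 members had a median GC content of 54.4%, above the 48.0% of all protein-coding genes past the floor. After the correction for GC content and length the median of the 7 microfibril and elastic fibre genes was -0.68, that of the 6 fibronectin and matricellular genes -0.10, that of the 6 laminin chains 0.22 and that of the 11 crosslinking genes -0.37. All 30 members except LOXL1 and TGM2 kept the sign of their ratio under this correction and under TMM, upper-quartile and median scaling. The largest values after the correction were -1.68 for FBN1 and 1.14 for FBLN5.

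**Figure D4:**
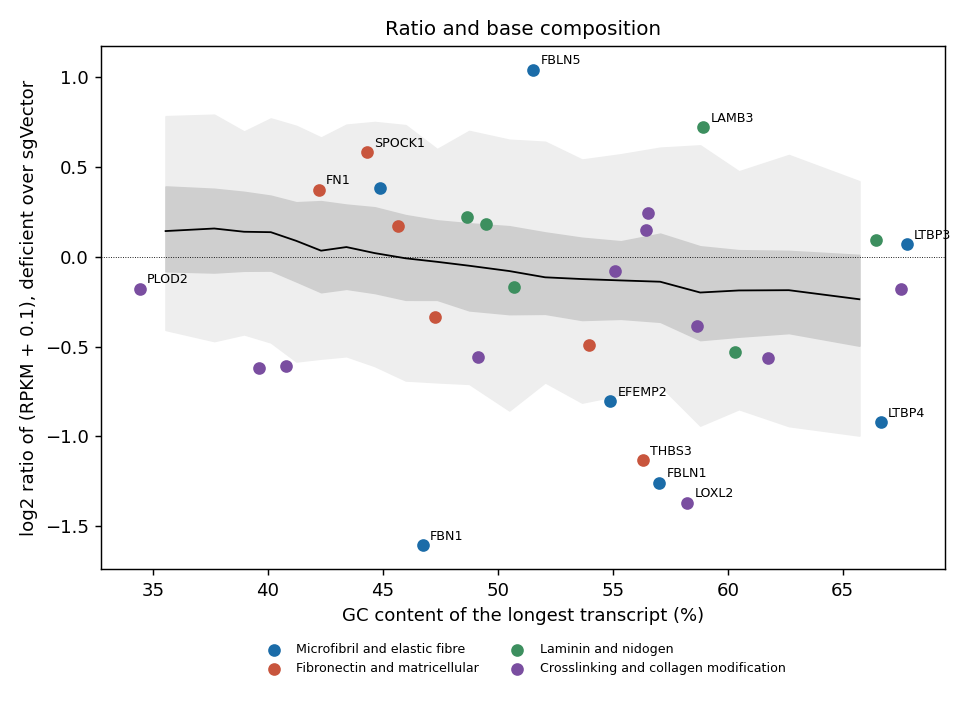
Log2 ratio of (RPKM + 0.1) against the GC content of the longest transcript for the 30 matrix genes (coloured points) over the median (line), the 25th to 75th percentile (dark band) and the 5th to 95th percentile (light band) of protein-coding genes in 20 equal classes of GC content. FBN1, FBLN1, THBS3 and LOXL2 lie well below the light band, LOX, P4HA1 and EFEMP2 just below it, and FBLN5 and LAMB3 above it.

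The median log2 ratio of the 20 nearest genes ranged from -0.31 to 0.33 over the 30 members. Neighbours and gene were both lower for LOXL2 and FBLN1, and also for others such as LTBP4, LAMB2, PLOD1, PLOD3 and P4HA1. Both were higher for LAMC1 (0.22, neighbours 0.28) and THBS1 (0.17, neighbours 0.27), whose neighbours had the larger value. Other members, such as FBN1 and SPARC, went against their neighbours. The part of the neighbourhood in the ratio was not tested for any member. Of the 30 members 16 share exon bases with another gene of the table, and where that gene lies on the opposite strand its reads cannot be told apart without strand. For bases shared on the same strand, as by LOXL2 and ENTPD4, strand would not separate the reads.

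Related genes outside the 47 were counted by lists. Of 16 genes listed beside the microfibril and elastic fibre members that matched a row, 4 passed the floor. Of the 4, 3 were past 2-fold, 2 lower and 1 higher, where 2.07% and 2.10% of all protein-coding genes were. This list was written with earlier results of these data known and includes matrix genes of other kinds, such as MGP and ECM1. Its shares are therefore no independent check of the microfibril group. After the GC and length correction ECM1 (-0.99) and MFAP3 (0.92) fell short of 2-fold. MGP, which encodes a matrix inhibitor of calcification, stood at 2.96 RPKM against 8.14 RPKM and was 2.75-fold lower (2.24 to 3.39). ECM1, a secreted matrix glycoprotein gene, stood at 3.58 RPKM against 8.23 RPKM and was 2.30-fold lower (1.94 to 2.73). MFAP3, a microfibril-associated gene, stood at 2.38 RPKM against 1.11 RPKM and was 2.15-fold higher (1.75 to 2.64). Of 18 other matricellular genes 6 passed the floor, 5 with intervals wholly above 1 and 1 below, beside 30.0% and 35.4% of all protein-coding genes. The median log2 ratio of the 6 was 0.49. CCN2, a matricellular growth regulator gene, stood at 28.4 RPKM against 11.7 RPKM and was 2.43-fold higher (2.18 to 2.72). Of 11 other basement membrane genes 4 passed the floor, 0 of them past 2-fold, with a median of 0.11.

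Of 22 other genes of collagen modification and processing 16 passed the floor, 10 with intervals wholly below 1 and 4 wholly above, beside 35.4% and 30.0% of all protein-coding genes, with a median log2 ratio of -0.23. After the GC and length correction this median was -0.16. ADAMTS2, a procollagen propeptidase gene, had 278 reads in deficient cells and 64 in control cells, at 1.94 and 0.453 RPKM, and passed the floor only through the library where it was high. Its relative ADAMTS14, named after its values were seen and under the floor, went the other way, with 12 and 93 reads at 0.139 and 1.09 RPKM. Of 8 genes of TGF-beta ligands, their matrix activators and related proteins 5 passed the floor, 4 with intervals above 1 and 1 below, and 0 were past 2-fold. Of 13 laminin and fibronectin receptor genes 12 passed the floor, 7 with intervals above 1 and 5 below, with a median of 0.18 and 0 past 2-fold. The receptor median was 0.09 after the GC and length correction.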

How the data were processed

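Both libraries are listed as polyA RNA of SUM-159 cells, per the labels, whose protocol allows either polyA selection or rRNA depletion without naming one. The authors deposited RPKM values, 1 column per library, with exon positions and lengths per the file headers. The tools named, per the submitters' processing notes, are featureCounts 1.6.4 and Subread, with the builds GRCh37 and hg19. Which aligner, annotation release and strand setting were used is not given in these sources.

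RPKM times length moved in steps of 1 read (within 1e-06), from which reads were recovered. Symbols came from a gene name table. Gene types and GC content (longest transcript) came from GENCODE release 29, with no coordinates taken from it. Of 60880 rows, 41 pseudoautosomal copies were left out. Log2 ratios used a pseudocount of 0.1 RPKM. No p-values were computed.

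All 47 members are named. Full values went to members past 2-fold, the 2 highest and 2 lowest of each group and its most abundant member. Genes of the other lists are named where past 2-fold and past the floor. Members and lists were chosen with earlier results of these data known. Alternatives were pseudocounts of 1 and 0.01 RPKM, TMM (trims of 30% and 5%), upper-quartile and median scaling, lowess correction (share 0.3) on GC content and then log10 length, floors of 5, 0.5 and none, at least 50 reads, 1.5-fold, and intervals wholly past 2-fold. The steps were tested on simulated data. Values of a few non-member genes are not reported here. Software was Python 3.11.15 with matplotlib 3.10.9, statsmodels 0.14.6, scipy 1.17.1, pandas 2.3.3 and numpy 2.4.6.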

Additional observations from a re-analysis of the deposited data

How the results depend on the processing

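Of 180 values of single members under 6 settings (pseudocounts, scalings and the GC and length correction), 151 lay within the counting interval and 29 outside it, and 0 of the genes past 2-fold changed sign. A pseudocount of 1 RPKM ended the call of FBLN5 (0.75), and the GC and length correction that of THBS3 (-0.98). The median of the microfibril and elastic fibre group was -0.60 with a pseudocount of 1, -0.43 with a floor of 5 RPKM and -0.20 with no floor. The fibronectin and matricellular median was -0.0067 with TMM scaling and 0.23 with no floor. The laminin median was 0.21 with TMM scaling, 0.22 with the GC and length correction and -0.11 with no floor, and the crosslinking median -0.20 with no floor. Floors change which genes enter by construction, and with no floor genes of a few reads enter. The other moves also follow from the settings. A pseudocount of 1 RPKM draws the log2 ratios of low genes toward 0. TMM scaling takes a shift of -0.076 out of the log2 ratios, and the GC and length correction takes out the fitted trends. What underlies that shift and those trends was not tested. The number of members at least 2-fold higher was 0 with a pseudocount of 1, with a floor of 5 RPKM and with the whole interval past 2-fold, and 2 at 1.5-fold. SPOCK1, 1.502-fold higher by read shares, fell just short of 1.5-fold on the log2 scale with 0.1 RPKM added (0.584). The number lower was 4, 8 at 1.5-fold and 3 with the whole interval past 2-fold. Shares of all protein-coding genes under these alternative cuts were not computed, so these counts stand without a background. Depth limits the 17 members under the floor, which had at most 83 reads over both libraries, and 15 of their intervals span no difference.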
